A study of Mus musculus with 6 samples.

Results

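The genes described here are 10 genes for proteins that astrocytes release or carry on their surface and that act on synapses and matrix: the thrombospondins Thbs1, Thbs2, Thbs3 and Thbs4, the SPARC family members Sparc and Sparcl1, the glypicans Gpc1, Gpc4 and Gpc6, and the chordin-like gene Chrdl1. They were taken by gene name from a table of 54532 genes, in which each of the 10 names stood once, and all 10 passed the filter on low counts. RNA was sequenced from primary cortical astrocytes of mouse pups, grown in culture. The knockout cultures were from GFAP-Cre::NEOf/f pups, in which Cre driven by the promoter of the astrocyte filament gene Gfap deletes the floxed neogenin gene Neo1, while the series' design text gives littermates as the source of the control cultures. The genotype label of these samples reads only control, and their library names, Neoff, carry the floxed gene's name without that of the Cre driver. There were 3 libraries of each genotype, with 60819277 to 106081115 counts per library. The sample titles number the libraries of each genotype as biological replicates. Pup age, strain, sex and whether pups were pooled are not given in the labels. Nothing says that the libraries of a genotype came from separate litters. The p-values therefore set the difference between genotypes against the spread between these libraries.

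Thrombospondins are large secreted glycoproteins. Released by astrocytes, they promote the formation of synapses between neurons through the calcium channel subunit α2δ-1. The product of Sparcl1, also called hevin, bridges neurexin and neuroligin across the synapse, and SPARC, its close relative, is known to oppose it. Glypicans are heparan sulfate proteoglycans held in the membrane by a lipid anchor, and astrocytic glypicans 4 and 6 recruit AMPA-type glutamate receptors to young synapses. Chordin-like 1, a secreted antagonist of bone morphogenetic proteins, drives the later switch of these receptors to the calcium-impermeable form.

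Neo1 was read first, as the check of the labels. It had 101, 106 and 105 CPM in the knockout libraries, against 189, 189 and 198 CPM in the control libraries, where CPM stands for normalised counts scaled to the library total after TMM normalisation. That is a log2 fold change of −0.89 (standard error, SE, 0.05; adjusted p = 5.8e-11 by edgeR's quasi-likelihood test). The deleted exon is not named in the labels, so the count over all exons does not measure the deletion.

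Among the 10 genes, Thbs2 rose to 1.93 times its control level in the knockout cultures and Gpc4 fell to 0.589 times. Smaller rises were called for Thbs1 (1.10 times) and Chrdl1 (1.18 times). The other 6 genes, Thbs3, Thbs4, Sparc, Sparcl1, Gpc1 and Gpc6, did not pass the test. Rises and falls are those with an adjusted p under 0.05 by the quasi-likelihood test of edgeR, adjusted by Benjamini-Hochberg over all genes. By the same rule 38.3% of the 18530 genes tested were called, 19.6% higher and 18.7% lower. The 3 higher and 1 lower of 10 are therefore a share near that of all genes. The libraries of the genotypes did not overlap for the same 4 of the 10 genes, against 49.3% of all genes tested, 24.7% higher and 24.5% lower in knockout. Scaled by total counts alone, 2921 of all genes were higher and 4499 lower, against 3627 and 3466 here. The median log2 fold change was 0.09 over the 10 genes and −0.002 over all genes tested. Of the 10, 1 was called higher, Thbs2, without control replicate 1, without control replicate 2 or with scaling by total counts.

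The promoter sequences of the 2 genes with the largest changes are shown because the rise of Thbs2 and the fall of Gpc4 carry the results. Each is the 250 bases before the annotated start in RefSeq, build GRCm38.p6, on the minus strand, written 5′ to 3′. The Thbs2 window is chr17:14694263-14694512 and the Gpc4 window is chrX:52164924-52165173. The gene positions given below come from another annotation, GENCODE, in which Gpc4 starts further upstream, at 52165252. By that annotation the whole Gpc4 window lies inside the gene, whereas the Thbs2 window lies before its gene. Capitals mark matches, on either strand, to any of 5 short motifs. The core of a hypoxia response element was searched as ACGTG. The site of TEAD factors, the partners of YAP, was searched as GGAATG. The GC box, which binds SP1, was searched as GGGCGG. The site of the factor AP-1 was searched as TGANTCA. The TATA box was searched as TATAAA.
Thbs2: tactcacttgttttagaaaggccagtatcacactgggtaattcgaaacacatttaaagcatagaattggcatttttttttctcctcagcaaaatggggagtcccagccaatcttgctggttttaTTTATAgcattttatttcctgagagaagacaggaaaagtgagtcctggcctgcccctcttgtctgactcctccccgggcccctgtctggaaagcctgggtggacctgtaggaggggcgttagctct
Gpc4: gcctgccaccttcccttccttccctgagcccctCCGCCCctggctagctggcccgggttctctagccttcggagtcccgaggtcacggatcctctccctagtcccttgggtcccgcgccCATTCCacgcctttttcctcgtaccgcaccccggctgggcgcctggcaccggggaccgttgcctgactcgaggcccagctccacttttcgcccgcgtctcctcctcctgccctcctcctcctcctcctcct

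The pair differs in base composition. The Thbs2 window is 46.8% G and C and the Gpc4 window 68.4%, against a median of 52.4% over 32851 such windows. The letters of the TATA box occur once in the Thbs2 window and those of a GC box and a TEAD site once each in the Gpc4 window, all on the opposite strand. Of all windows, 12.4% hold a TATA box, 32.7% a GC box and 12.6% a TEAD site. Neither window holds the hypoxia response core, present in 16.6% of windows, or the AP-1 letters, present in 6.7%. These matches describe the letters only. The RefSeq table held 5 of the 10 genes.

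Thbs2 (ENSMUSG00000023885, GRCm38 chromosome 17, 14665500 to 14694235, minus strand) encodes thrombospondin-2, which forms trimers and is abundant in connective tissue. It had 541, 575 and 543 CPM in the 3 knockout libraries, against 279, 294 and 289 CPM in the control libraries. The lowest knockout library stood well above the highest control library, and within each genotype the libraries lay close together. The resulting log2 fold change was 0.95 (SE 0.04, adjusted p = 8.3e-12), with a 95% confidence interval of 0.86 to 1.03. In absolute size it exceeded 89.4% of all genes tested. It stayed between 0.88 and 0.96 under each of the 17 other settings and passed the test in all of them, the test against a fold of 1.5 included.

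Thbs1 (ENSMUSG00000040152, chromosome 2, 118111876 to 118127133, plus strand) encodes thrombospondin-1, the other trimeric member, which also activates latent TGF-β and binds CD36 and CD47. It was the gene with the second-highest mean count of all those tested, taking 0.656% to 0.672% of all counts in the knockout libraries and 0.613% to 0.656% in the control libraries. Its levels were 6698, 6763 and 6856 CPM in the knockout libraries and 5993, 6021 and 6424 CPM in the control libraries. The groups did not overlap, but control replicate 3 lay nearer to the knockout libraries than to the rest of the controls. On the log2 scale its rise was 0.14 with an SE of 0.04 (adjusted p = 0.0059). The call was lost without control replicate 1 and without control replicate 2 (log2 fold change 0.12 and adjusted p = 0.062 in both), and with scaling by total counts (0.075, adjusted p = 0.11).

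Thbs3 and Thbs4 belong to the pentameric branch of the family. Thbs3 (ENSMUSG00000028047, chromosome 3, 89215180 to 89226837, plus strand) had 47.0, 47.5 and 48.8 CPM in knockout and 51.2, 51.9 and 47.9 CPM in control libraries. Control replicate 3 fell within the knockout range, so the groups overlapped. On the log2 scale the difference was −0.08 with a 95% confidence interval of −0.20 to 0.05 (adjusted p = 0.34). Thbs4 (ENSMUSG00000021702, chromosome 13, 92751590 to 92794818, minus strand), which in muscle and tendon supports cell attachment, was the weakest of the 10 genes, with 255, 143 and 153 counts in knockout and 112, 152 and 248 counts in control libraries. These counts were 2.67, 1.95 and 2.09 CPM in knockout and 1.80, 2.204 and 2.29 CPM in control libraries, and the groups overlapped. At this depth the 95% confidence interval of its log2 fold change ran from −0.37 to 0.55 (adjusted p = 0.78).

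**Figure D1:**
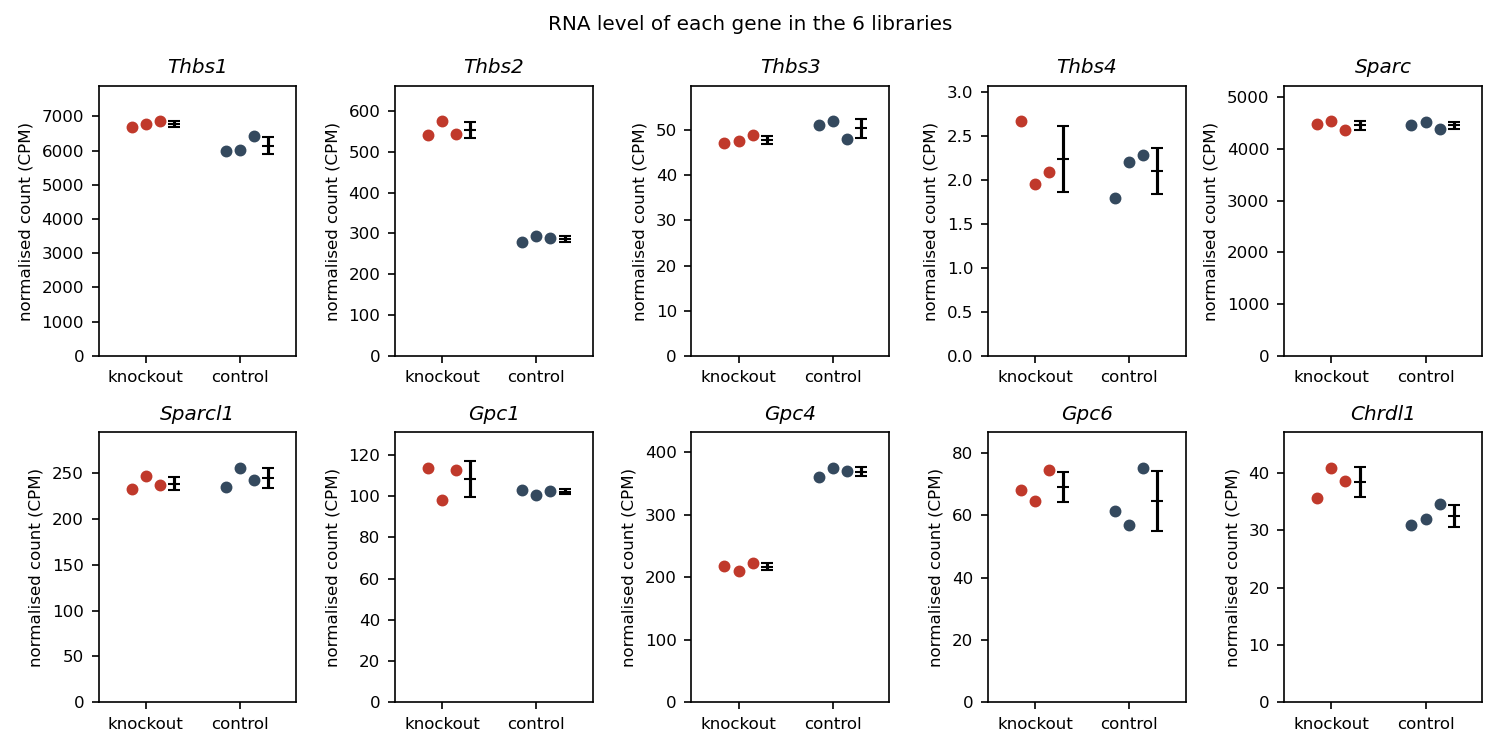
Normalised counts (CPM, linear axes from 0) of the 10 genes in each library, with 3 knockout libraries left and 3 control libraries right in every panel; the bar beside each group is the mean ± SD. Thbs2 is higher and Gpc4 lower in every knockout library, Thbs1 and Chrdl1 are higher by a smaller margin, and the groups overlap for the other 6.

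Sparc (ENSMUSG00000018593, chromosome 11, 55394500 to 55423183, minus strand) encodes a calcium-binding matrix protein that binds collagens. It ranked seventh by mean count among all genes tested. It had 4482, 4538 and 4359 CPM in knockout and 4459.7, 4521 and 4386 CPM in control libraries, and the ranges of the groups covered each other. Its log2 fold change was 0.001 with a 95% confidence interval of −0.07 to 0.08 (adjusted p = 0.98), so a difference beyond about 0.08 lies outside that interval under this normalisation. With scaling by total counts it was −0.06 (adjusted p = 0.15). Sparcl1 (ENSMUSG00000029309, chromosome 5, 104079111 to 104113733, minus strand) had 232, 246 and 236 CPM in knockout and 235, 255 and 242 CPM in control libraries, again with overlap. Its log2 fold change was −0.04, with an interval of −0.13 to 0.06 (adjusted p = 0.58).

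Because SPARC opposes hevin, the ratio of the pair within each library was compared as well, which needs no scaling between libraries. Per kilobase of exon, Sparcl1 stood at 6.68%, 6.998% and 6.99% of Sparc in knockout and 6.79%, 7.29% and 7.12% in control libraries. The groups overlapped. The mean log2 ratio of counts was −4.23 ± 0.04 in knockout and −4.19 ± 0.05 in control libraries (SD, n = 3 each), a difference of −0.04 (two-sided exact permutation test, p = 0.40; the smallest p that 3 against 3 allows is 0.10).

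Gpc4 (ENSMUSG00000031119, chromosome X, 52053021 to 52165252, minus strand) encodes glypican-4, the astrocyte glypican best known for recruiting AMPA receptors. It had 218, 211 and 223 CPM in the knockout libraries, against 361, 375 and 371 CPM in the control libraries. Every knockout library lay far below every control library. The log2 fold change was −0.76 (SE 0.04, adjusted p = 1.4e-10), with a 95% confidence interval of −0.85 to −0.68, and in absolute size it exceeded 84.7% of all genes tested. It lay between −0.83 and −0.74 under each of the 17 other settings and passed the test in all of them.

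The other glypicans of the set did not pass the test. Gpc6 (ENSMUSG00000058571, chromosome 14, 116925315 to 117976544, plus strand), whose product shares the receptor-recruiting activity of glypican-4, had 68.2, 64.7 and 74.4 CPM in knockout and 61.5, 56.8 and 75.3 CPM in control libraries. Control replicate 3 held the highest value of all and made the groups overlap. The difference was 0.10 on the log2 scale (interval −0.10 to 0.29, adjusted p = 0.45), and 0.22 (adjusted p = 0.020) without control replicate 3. Gpc1 (ENSMUSG00000034220, chromosome 1, 92831645 to 92860779, plus strand), a glypican that modulates growth factor signalling, had 114, 98.2 and 113 CPM in knockout and 103, 101 and 102 CPM in control libraries. Knockout replicate 2 lay below all control libraries while the remaining knockout libraries lay above them. Its log2 fold change was 0.09 (interval −0.03 to 0.20, adjusted p = 0.26), and 0.15 (adjusted p = 0.011) without knockout replicate 2; this library was also set apart along principal component 2, which held 19.6% of the variance.

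Chrdl1 (ENSMUSG00000031283, chromosome X, 143285674 to 143394262, minus strand) had 35.6, 40.9 and 38.6 CPM in knockout and 30.9, 32.1 and 34.6 CPM in control libraries. The groups did not overlap, but the lowest knockout and the highest control library were about 1 CPM apart. The log2 fold change was 0.24 (SE 0.07, adjusted p = 0.012). It was no longer called without control replicate 1 (0.20, adjusted p = 0.077), without control replicate 2 (0.22, adjusted p = 0.056) or with scaling by total counts (0.17, adjusted p = 0.056). Chrdl1 and Gpc4 are the X-linked genes of the set. Xist, the transcript of the inactive X chromosome, was at 0.0273 to 0.356 CPM in knockout and 0.113 to 0.323 CPM in control libraries, near 0 in both genotypes. Y-linked transcripts were detected in every library and were higher in knockout for the 4 genes looked at, Ddx3y, Uty, Kdm5d and Eif2s3y (log2 fold changes 0.77, 0.62, 0.44 and 0.41; adjusted p = 1.2e-09, 4.5e-05, 0.0013 and 0.00022), which were chosen after the values of the 10 genes were seen. Their part in the results for Chrdl1 and Gpc4 was not tested.

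**Figure D2:**
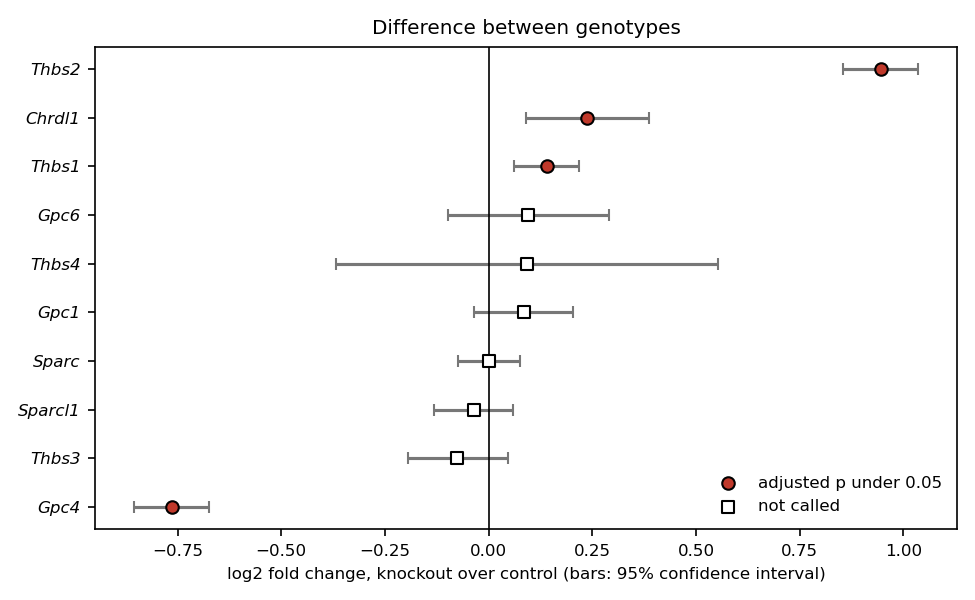
Log2 fold changes of knockout over control for the 10 genes, with 95% confidence intervals from edgeR's quasi-likelihood fit; filled circles passed the adjusted p threshold and open squares did not. Thbs2 (0.95) and Gpc4 (−0.76) lie far from 0, Chrdl1 and Thbs1 lie just above it, and the interval of Thbs4 is the widest.

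Levels of different genes were compared as RPKM, here CPM divided by kilobases of annotated exon. Sparc and Thbs1 led in both genotypes, at 1177 ± 24.2 and 1115 ± 13.1 RPKM in knockout and 1176 ± 17.7 and 1012 ± 39.6 RPKM in control libraries (SD, n = 3 each). The next places differed by genotype. In the knockout libraries Gpc4 (79.4 to 84.1 RPKM), Sparcl1 (79.0 to 83.8) and Thbs2 (77.2 to 82.1) had overlapping ranges. In the control libraries they stood apart, with Gpc4 at 136 to 142 RPKM, Sparcl1 at 79.9 to 87.0 and Thbs2 at 39.8 to 41.9. Gpc1 followed at 21.0 ± 1.68 RPKM in knockout and 19.8 ± 0.230 in control libraries. Gpc6, at 10.8 ± 0.764 RPKM in knockout and 10.05 ± 1.49 in control libraries, overlapped with Thbs3, at 9.91 ± 0.189 and 10.4 ± 0.447 RPKM. Chrdl1, at 5.68 ± 0.394 and 4.81 ± 0.282 RPKM, and Thbs4, at 0.681 ± 0.115 and 0.638 ± 0.0794 RPKM, came last.

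Within the families, these differences moved the shares of the summed level. The summed level of Thbs1, Thbs2, Thbs3 and Thbs4 was 1205 ± 13.3 RPKM in knockout and 1064 ± 39.5 RPKM in control libraries. Thbs1 made up 92.6% ± 0.213 and 95.1% ± 0.218 of it. The share of Thbs2 was 6.49%, 6.80% and 6.37% in knockout and 3.84%, 4.01% and 3.72% in control libraries, without overlap. The summed level of the 3 glypicans was 114 ± 4.63 RPKM in knockout and 169 ± 2.91 RPKM in control libraries. Gpc4 made up 71.6%, 73.2% and 71.6% of that sum in knockout and 82.2%, 83.3% and 81.6% in control libraries, so it remained the leading glypican of the set in both. Together the 10 genes took 1.22% of all counts in each knockout library and 1.18% to 1.22% in the control libraries.

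**Figure D3:**
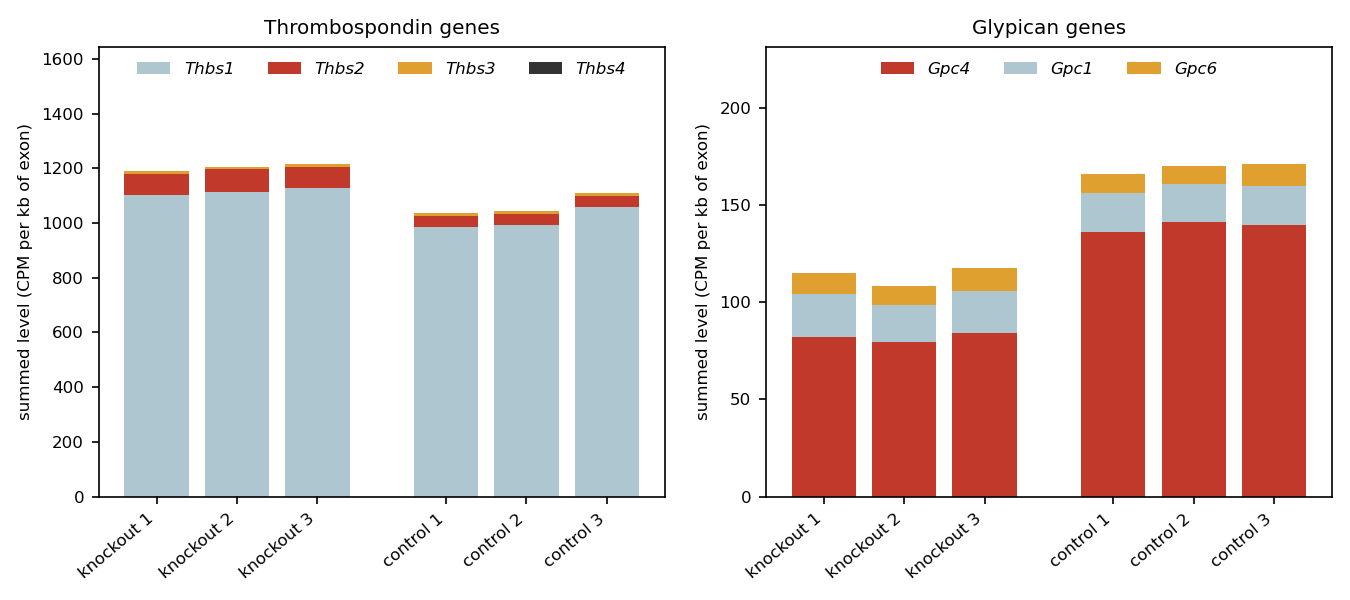
Summed levels (CPM per kilobase of exon) of Thbs1, Thbs2, Thbs3 and Thbs4 (left) and of the 3 glypican genes (right) in each library, knockout libraries before control libraries, split by gene. The thrombospondin sum is almost all Thbs1 in both genotypes, with a wider Thbs2 band in the knockout libraries, and the lower glypican sum of the knockout libraries is a shorter Gpc4 band.

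Relatives of the 10 genes moved in both directions: of 10 tested, 2 rose and 5 fell, with a median log2 fold change of −0.33. Over all genes tested, 19.6% were called higher and 18.7% lower. The number that fell was 3 without control replicate 1, knockout replicate 1 or knockout replicate 3. Smoc2, a secreted relative of SPARC, rose to 74.0 ± 0.477 CPM in knockout cultures, against 25.5 ± 0.947 CPM in control cultures (log2 fold change 1.54, adjusted p = 6.7e-13). Fstl1, a follistatin-like SPARC relative, rose to 2967 ± 32.3 CPM, against 2110.5 ± 37.3 CPM in control cultures (0.49, adjusted p = 5.4e-09). The proteoglycan genes Spock2 and Spock1 fell, with log2 fold changes of −0.63 and −0.60. So did Chrd, which encodes chordin (−0.55), and Comp, the fifth thrombospondin (−0.56), both under 6 CPM in either genotype. A further pair of glypicans are named outside the naming rule, because they neighbour members with no protein-coding gene between. Gpc3, beside Gpc4, was at 13.9 ± 2.39 CPM in knockout and 15.04 ± 1.24 CPM in control cultures (adjusted p = 0.52), and Gpc5, beside Gpc6, fell to 0.593 ± 0.134 CPM in knockout cultures, against 1.13 ± 0.140 CPM in control cultures (adjusted p = 0.042).

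Of 17 tested receptors and partners of these proteins, 7 rose and 5 fell, with a median of 0.11. The shares over all genes were 19.6% higher and 18.7% lower. Without control replicate 1, 2 of the receptors and partners fell, and without control replicate 3, 3 fell. Receptors of thrombospondin-1 were among those that rose. Cd47 was at 251 ± 5.77 CPM in knockout and 163 ± 0.675 CPM in control cultures (0.63, adjusted p = 2.2e-09), Cd36 at 25.4 ± 0.847 and 16.8 ± 1.71 CPM (0.59, adjusted p = 2.0e-05), and the integrin subunit gene Itgb3 at 48.6 ± 1.32 and 23.9 ± 2.68 CPM (1.03, adjusted p = 6.0e-09). Lrp1, an endocytic receptor that clears thrombospondins, rose with a log2 fold change of 0.40, and Nlgn2, a neuroligin, with 0.49. Stab1, a scavenger receptor that takes up SPARC and that macrophages also express, fell to 7.14 ± 0.501 CPM, against 16.8 ± 1.36 CPM in control cultures (−1.24, adjusted p = 3.6e-08). Cacna2d1, the gene of α2δ-1, is named outside the rule. It was at 38.4 ± 1.03 CPM in knockout and 34.3 ± 2.62 CPM in control cultures, without overlap but not called (0.16, adjusted p = 0.073).

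Enzymes linked to heparan sulfate or glypicans numbered 7 higher and 4 lower of 22 tested, with a median of 0.07. Of all genes, 19.6% were higher and 18.7% lower. The number of these enzymes higher was 4 without control replicate 2. Ext1, which polymerises the chain, rose to 338 ± 8.97 CPM in knockout cultures, against 214 ± 4.26 CPM in control cultures (0.66, adjusted p = 1.1e-09). Sulf1, an extracellular sulfatase, and Hs6st2, a sulfotransferase, rose with log2 fold changes of 0.43 and 0.39. The sulfotransferase genes Hs3st1 and Hs6st1 and the linker enzyme gene B3gat3 fell (−0.82, −0.27 and −0.40). Notum, also of this list, is named outside the rule. It was at 13.1 ± 1.07 CPM in knockout and 13.02 ± 0.987 CPM in control cultures (adjusted p = 0.94).

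Other factors that act on synapses, not all of them from astrocytes, numbered 7 higher and 11 lower of 20 tested, with a median of −0.29. Among all genes the shares were 19.6% higher and 18.7% lower. The cytokine gene Tnf fell to 43.7 ± 2.95 CPM in knockout cultures, against 151 ± 4.96 CPM in control cultures (−1.79, adjusted p = 8.4e-14). Nptx2, a pentraxin that clusters AMPA receptors, and Ephb1, an ephrin receptor, fell with log2 fold changes of −1.46 and −1.17. Nptx1, a pentraxin whose release from neurons glypican-4 induces, is named outside the rule and fell to 45.4 ± 3.03 CPM, against 63.7 ± 4.39 CPM in control cultures (−0.49, adjusted p = 1.1e-05). Tnc, the matrix protein tenascin-C, rose to 4717 ± 68.3 CPM, against 3116 ± 136 CPM in control cultures (0.60). The cytokine gene Il33 and the signalling ligand gene Wnt5a rose too (1.38 and 0.64).

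**Figure D4:**
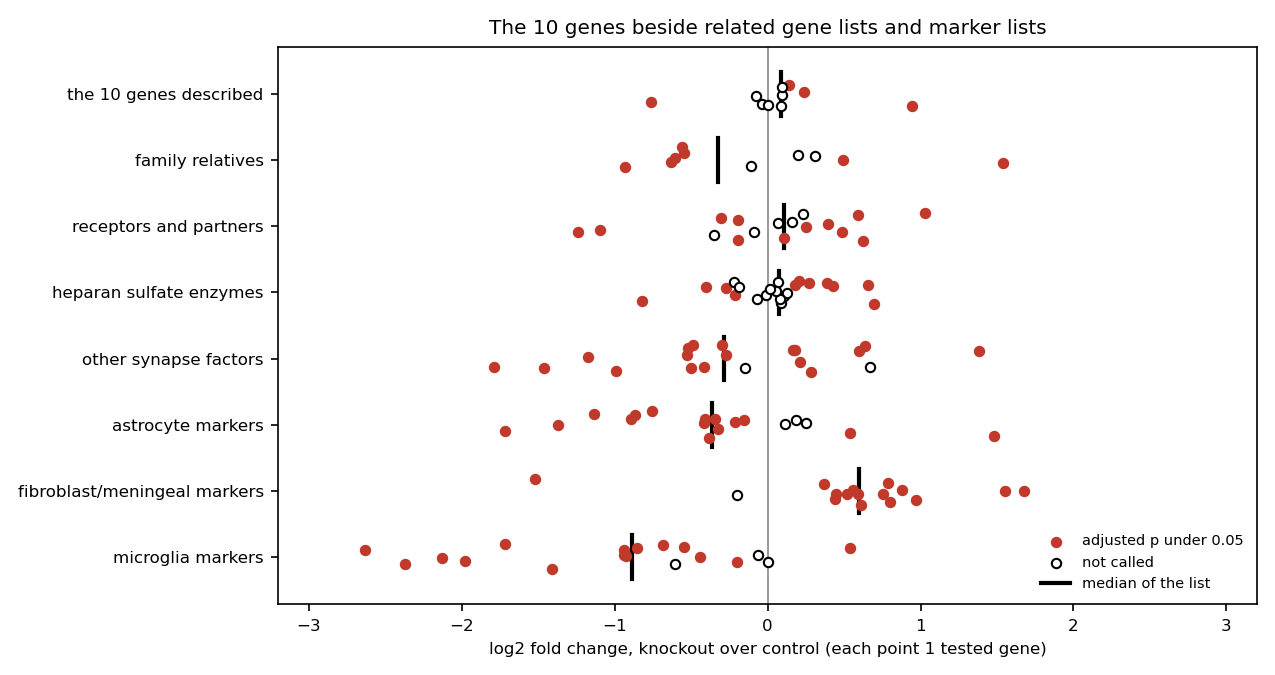
Log2 fold changes of knockout over control for every tested gene of the 10-gene set, of the related lists and of marker lists for astrocytes, fibroblasts or meninges, and microglia; filled points passed the adjusted p threshold, open points did not, and vertical bars are list medians. Most of the 10 genes lie near 0, while fibroblast and meningeal markers lie mostly to the right and astrocyte and microglia markers mostly to the left.

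Markers of other cells moved with genotype, and their part in the results above was not tested. The counts of each marker list stand beside 19.6% of all genes called higher and 18.7% called lower. Fibroblasts and meningeal cells also express Thbs2, Thbs1 and Sparc. Of 16 tested fibroblast and meningeal markers, 14 rose and 1 fell (median 0.60), with a summed level of 11294 to 12067 CPM in knockout and 8060.4 to 8551 CPM in control libraries. Col3a1 was at 496 ± 7.79 CPM in knockout and 253 ± 2.71 CPM in control cultures (log2 fold change 0.97), close in size to the change of Thbs2, and Dcn rose with 1.56, whereas Sparc, as given above, was at 0.001. Fn1 was the most abundant of these markers (0.37). Astrocyte markers numbered 2 higher and 13 lower of 18 (median −0.36), at 3099 to 3244 CPM in knockout and 3579 to 3663 CPM in control libraries. Gfap fell by 1.13 on the log2 scale, beside Gpc4, while Slc1a2 and Aqp4 rose (1.48 and 0.54). Of the astrocyte markers, Gjb6 was lowest, at 1.10 ± 0.419 CPM in knockout and 0.924 ± 0.120 CPM in control cultures. In bulk RNA, fewer cells of a type and less RNA per cell cannot be told apart.

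Against 19.6% of all genes higher and 18.7% lower, microglia markers numbered 1 higher and 14 lower of 18 (median −0.89). Their summed level was 114 to 122 CPM in knockout and 173 to 184 CPM in control libraries. C1qb and C1qa were lower, with log2 fold changes of −1.98 and −2.13. Tmem119, named outside the rule, was the marker that rose, at 6.76 ± 0.288 CPM in knockout and 4.66 ± 0.458 CPM in control cultures (0.54, adjusted p = 0.0039). P2ry12, also outside the rule, was not called, at 0.265 ± 0.103 and 0.277 ± 0.205 CPM. Aif1 and Cx3cr1 fell but were low, at 0.171 and 0.164 CPM in knockout cultures. Endothelial markers numbered 4 higher and 1 lower of 11 (165 to 169 CPM in knockout, 112 to 119 CPM in control libraries), led by Cdh5 (1.00) and Flt1 (0.65), with Slco1a4 lower (−1.84); the defining genes Cldn5 and Erg were too low to test. Pericyte and smooth muscle markers numbered 2 higher and 5 lower of 10 (3196 to 3241 CPM in knockout, 4454 to 4671 CPM in control libraries), with Cnn1, Mcam and Acta2 lower (−1.13, −0.93 and −0.52). Neuron markers numbered 2 higher and 3 lower of 13 (375 to 389 CPM in knockout, 425 to 442 CPM in control libraries), with Stmn2 lower and Nefm higher. Oligodendrocyte lineage markers numbered 0 higher and 4 lower of 8 (104 to 129.9 CPM in knockout, 174 to 187 CPM in control libraries), with Olig1 and Cnp lower; Mog and Mobp were too low to test. No marker in these lists was at 0 in every library.

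Exons of 3 of the 10 genes overlap those of another gene on the opposite strand, and the sources used here do not say whether counting used strand. For Gpc1 the overlap with Ankmy1 covers 18.9% of exon length, for Thbs3 that with Mtx1 6.59%, and for Thbs1 that with Gm29233 3.42%. Ankmy1 was at 0.353 ± 0.0257 CPM in knockout and 0.336 ± 0.181 CPM in control libraries, and Gm29233 had no count. Mtx1 was at 17.9 ± 2.68 CPM in knockout and 21.3 ± 3.11 CPM in control libraries. Apart from those overlaps, no near-identical copy of any of the 10 genes was found among annotated transcripts.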

How the data were processed

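The authors deposited a table of raw read counts per Ensembl gene for 6 libraries, made with poly-T beads, per the labels' protocols. HISAT2 2.2.1, featureCounts 2.0.6 and build GRCm38 (mm10) are named in the submitters' processing notes; for the annotation release, strand setting and multi-mapping reads, the settings were not stated in the sources used here. Columns were matched to samples by library name. No pair of libraries within a genotype was a duplicate (mean chi-square per gene 5.98 to 21.7 over genes with at least 20 counts).

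Of 54532 genes, 18530 passed filterByExpr (minimum count 10, minimum total 15). They were tested on the counts with edgeR 4.0.16 in R 4.3.3 (TMM, robust glmQLFit, glmQLFTest on genotype, two-sided, Benjamini-Hochberg over all genes, threshold 0.05), a step tested on simulated data. Standard errors come from the test statistic. Exon lengths and overlaps come from GENCODE, and copies were searched with BLAST (at least 95% identity over at least 100 bases). Lists were described by counts and medians, with no test of a list.

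The 10 genes, the 4 related lists and the 7 marker lists were chosen with earlier results of these data known. Named were all 10 genes, Neo1, up to 6 called genes with the smallest p in each related list, and in each marker list the most abundant gene and up to 2 called genes; 1 gene under this rule is not reported here. Alternatives were other scalings, DESeq2 1.42.0, limma-voom (limma 3.58.1), other filters and thresholds, a replicate block and each library left out.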

Additional observations from a re-analysis of the deposited data

How the results depend on the processing

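The calls of Thbs2, Gpc4 and Neo1 held under all 17 alternatives. The number of the 10 genes called higher was 1 with scaling by total counts and 1 in the test against a fold of 1.5, and ran from 1 to 4 with each library left out, against 3; with total counts the median log2 fold change of all genes was −0.07. Sparc, near 0 throughout, changed sign with upper-quartile scaling (−0.015), total counts (−0.064) and no filter (−0.006) and ran from −0.014 to 0.017 with each library left out; Thbs4 ran from −0.056 to 0.181. The cause was not tested. Against a fold of 1.5, 666 genes were higher and 348 lower, with 1 and 0 relatives, 1 and 1 receptors, 0 and 0 heparan sulfate enzymes, and 1 and 3 other synapse factors; this test asks for a larger difference. At an adjusted p under 0.01, 2712 of all genes were higher and 2467 lower, and 3 relatives and 3 receptors were lower. With each library left out, relatives lower ran from 3 to 5, receptors lower from 2 to 5 and heparan sulfate enzymes higher from 4 to 8. In the same fits, all genes higher ran from 2907 to 3517 and all genes lower from 2753 to 3431. Replicate numbers did not pair the libraries: deviations from group means of same-numbered libraries correlated over genes at 0.015, 0.019 and −0.0082, and knockout replicate 3 correlated best with control replicate 1. The replicate block gave 3 relatives lower, against 5, 3 of the 10 genes higher and 1 lower, and −0.04 for the ratio of Sparcl1 to Sparc (exact sign-flip p = 0.25, the smallest that 3 pairs allow). Thbs4 had the lowest counts of the 10 genes and the largest SE (0.22).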
